A study of Mus musculus with 36 samples.

Results

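On the arrays of this series, 136 of 25030 probes lost brightness between day 1 and day 6 in secondary mouse embryonic fibroblasts (MEFs) that were kept without doxycycline. They were chosen by their measured values: the mean log10 brightness of the 4 Dox- day 1 arrays had to exceed that of the 4 Dox- day 6 arrays by at least 0.5 (a 3.16-fold fall), every day 1 array had to lie above every day 6 array, and the day 1 mean had to be at least 2.5. Brightness here is the authors' deposited value of the sample channel of each array. The fall itself is therefore a description and carries no test. Each member is known only by its probe identifier, since no member's identifier, position or sequence could be paired with a gene in the files and tables used here. For the same reason the labelled cell types could not be checked against marker genes.

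The series asked how Zscan4, a gene of the earliest embryonic divisions and of a passing state of embryonic stem (ES) cells, bears on the making of induced pluripotent stem (iPS) cells. RNA was measured on 36 arrays in 18 groups of 2. The secondary MEFs were second-generation MEFs of clone #1, a hybrid of C57Bl/6 and 129, with the transgenes KOS and ZERT2, grown in ES medium with LIF. They were collected on days 1, 3 and 6 with doxycycline and tamoxifen (Dox+Tmx+), doxycycline (Dox+Tmx-), tamoxifen (Dox-Tmx+) or neither (Dox-Tmx-), at 1.5 µg/ml doxycycline and 200 nM tamoxifen. The iPS cells were of clone #2, and the ES cells were of the line v6.5. Primary MEFs were F1 hybrids from V6.5 in MEF medium, with a Zscan4ERT2 transgene or wild, each with and without tamoxifen. The protocols of 1 of the 2 Dox-Tmx+ day 1 arrays and of both wild MEF arrays labelled with tamoxifen mention no tamoxifen. Whether a group's 2 arrays stem from different cultures is not in the labels, and the p-values measure only the spread between these arrays, which may be technical.

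KOS is the usual shorthand for the reprogramming factors Klf4, Oct4 and Sox2, and doxycycline switches on transgenes that are built to respond to it. ERT2 is a receptor domain that keeps a fused protein inactive until a tamoxifen compound binds it. Fibroblasts under such factors first lose parts of the fibroblast programme and gain pluripotency genes later. Cells moved to a new dish and medium also change on their own, and the cultures without doxycycline were followed over the same days without induction.

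Between 54.9% and 77.1% of all probes were well above background on an array, against 86.0% to 100% of the members. The rule's limit on day 1 brightness favours such a difference, so nothing is read from it. Precision is limited by how few arrays each group has. The arrays lay on 11 slides scanned on 5 days. Each combination of doxycycline state and day was hybridised on a separate slide, and therefore these conditions and their slides cannot be told apart. The 8 day 1 arrays were scanned on another day than the 16 arrays of days 3 and 6, so day 1 and its scan day cannot be told apart either, whereas the Dox+ and Dox- arrays of day 3 and the iPS and ES arrays were all scanned on 1 day. In these bulk samples, fewer cells of a type and less RNA per cell cannot be told apart.

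Short stretches of 30 of the 60 probe bases identify the members on which the results below turn. The first 2 are the only pair among the 9180 pairs of members with similar sequences. They are printed where they overlap, with identical bases in capitals: 30 of 35 overlapping bases were identical, 25 of them in the 30 shown. The next pair was raised most by doxycycline on day 3, the third pair was lowered most, and the last pair rose most with time under doxycycline.
Z00041156-1: CTCATGAAAcGACAATGcCCATTTgcCtCT
Z00031819-1: CTCATGAAAtGACAATGaCCATTTtaCcCT
Z00022769-1: catcttgtatgagaaccttgtgctgaacgg
Z00022919-1: tccttgaagggcttgatatcacttgtgtct
Z00057154-1: tgtcgtggaggaaacgcagatgtcctgaaa
Z00023022-1: cgtgtaccatagggccccaaatgtggggtc
Z00003486-1: aaggtctgttcacagctgtaattattatta
Z00074700-1: tgagaaagatctgaaacaaggggccattgc
The members had a median GC content of 41.7% (range 23.3% to 56.7%), against 43.3% for all 25030 probes. The letters AATAAA, the core of the signal at which many transcripts are cut and polyadenylated, stood on the probe's own strand in 11 members (8.09%), against 7.90% of all probes.

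Without doxycycline, the course over the 3 days can only be described, because the rule fixed a high day 1 and a low day 6. The median member's log10 brightness on days 1, 3 and 6 was 3.32, 2.99 and 2.72, and the median fall was 0.59, or 3.93-fold, with a range of 0.50 to 1.07. Day 3 was not used to choose the members. By then the median member had covered 60.5% of its fall, with quartiles of 50.9% and 71.6%. All 4 Dox- day 3 arrays lay below all 4 day 1 arrays for 135 members, against 22% of all probes, and all 4 day 6 arrays lay below all 4 day 3 arrays for 120 members, against 18.6% of all probes. The share of the fall and both counts rest on arrays that chose the members, so nothing is read from them. The exception on day 3 was Z00028536-1, which had 3.37, 3.37, 3.37 and 3.36 on day 3, above its 3.14 to 3.21 on day 1, and then 2.28 to 2.39 on day 6. Its 2 Dox-Tmx+ arrays of day 6 had the same deposited value, 2.39, but log2 sample over reference ratios of -2.69 and -2.29.

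The largest fall was that of Z00064871-1, at 1.07 log10 units or 11.7-fold. It had 2.49 to 2.86 on the 4 Dox- day 1 arrays, 1.69 to 1.90 on day 3 and 1.32 to 1.63 on day 6, where 1 of the 4 arrays was not well above background. It was not well above background on any array of the ES cells, iPS cells or primary MEFs, nor on any Dox+ array of day 6. Z00016667-1 came next, at 0.96 log10 units or 9.15-fold, with 4.12 to 4.18 on day 1, 3.71 to 3.73 on day 3 and 3.15 to 3.22 on day 6. Its brightness in ES cells, 4.08 and 4.07, was near that of day 1, and its 3.32 and 3.30 in wild MEFs without tamoxifen lay between days 6 and 3. Just inside the limit on the difference lay Z00007777-1 and Z00056951-1, both at 0.502, and just outside lay Z00058479-1 and Z00051631-1, both at 0.500. At the limit on day 1 brightness, Z00040026-1 was kept at 2.51 and Z00077108-1 was left out at 2.49. In all, 83 probes met the other criteria but were too dim on day 1.

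**Figure D1:**
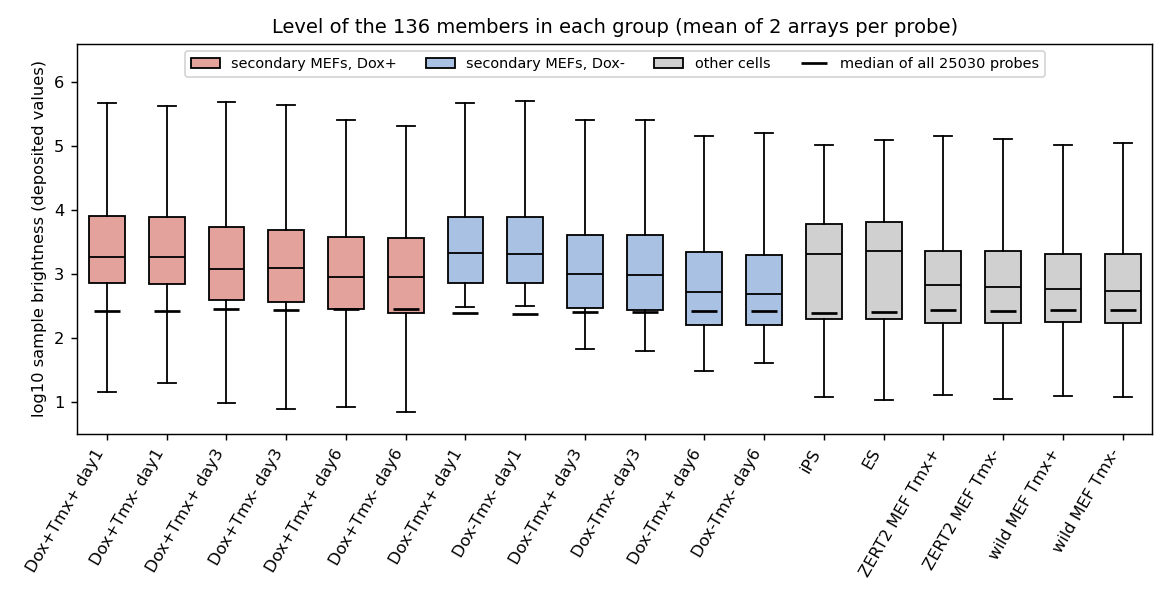
Log10 brightness of the 136 members (vertical axis) in the 18 groups (horizontal axis), as the mean of 2 arrays per member. Boxes give the quartiles with the median as a line, whiskers the range, and the short black bars the median of all 25030 probes, which stayed between 2.38 and 2.45. The Dox+ medians run from 3.27 on day 1 to 2.96 and 2.95 on day 6, while the Dox- medians run from 3.33 and 3.32 to 2.72 and 2.69.

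Levels in the other cells are given beside those of days 6 and 1 as a description, since the rule fixed the levels of both days. The members' median log10 brightness was 2.72 in Dox-Tmx+ and 2.69 in Dox-Tmx- cells of day 6, against 2.77 and 2.74 in wild MEFs with and without tamoxifen and 2.83 and 2.79 in Zscan4ERT2 MEFs with and without tamoxifen. Single members differed in both directions: untreated wild MEFs lay below the Dox- day 6 mean for 70 members, between days 6 and 1 for 64, and above day 1 for 2. The difference between wild MEFs and Dox- day 6 ran from -0.92 to 1.20 log10 units with a median of -0.01. The iPS cells at 3.32 and the ES cells at 3.36 are shown beside 3.33 and 3.32 in Dox-Tmx+ and Dox-Tmx- cells of day 1. The plot of levels by group shows that their quartiles were wider, with 15 members in iPS cells and 16 in ES cells not well above background on either array.

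On day 3 most members were brighter with doxycycline than without it, and a smaller set was dimmer. In limma's fit, 85 of 136 members were higher in Dox+ than in Dox- cells at an adjusted p under 0.05, against 35.8% of all 33099 probes tested, and 39 were lower, against 32.1%, while 12 were not called. That is 62.5% and 28.7% of the members, so the share called lower was near that of all probes. The members' median log2 difference was 0.52, against -0.00 for all probes, with quartiles of -0.31 and 1.07. At least 2-fold differences were called higher for 38 members and lower for 22, against 8.45% and 4.66% of all probes. All 136 members passed the filter on dim probes, which the rule's limit on brightness favours. These arrays played no part in choosing the members, and both states were scanned on the same day, but on a slide each.

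Z00022769-1 was raised most. It had 4.20 and 4.19 in Dox+Tmx+ and 4.21 and 4.21 in Dox+Tmx- cells, against 2.46 and 2.44 in Dox-Tmx+ and 2.42 and 2.47 in Dox-Tmx- cells on day 3. The 4 Dox+ arrays lay far above the 4 Dox- arrays, and the log2 difference was 5.58 (SE 0.06, limma adjusted p = 1.53e-28). With doxycycline it had between 4.14 and 4.19 on day 6 and between 3.88 and 3.91 on day 1, whereas without doxycycline it had between 1.93 and 2.05 on day 6 and between 2.88 and 2.95 on day 1. Its ES arrays had 2.03 and 2.03, below every Dox+ array.

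Z00022919-1 came next, with 4.41 and 4.42 in Dox+Tmx+ and 4.44 and 4.42 in Dox+Tmx- cells, against 2.86 and 2.83 in Dox-Tmx+ and 2.86 and 2.81 in Dox-Tmx- cells on day 3. Its log2 difference was 5.32 (SE 0.05, limma adjusted p = 1.80e-30). All 12 Dox+ arrays lay between 4.33 and 4.44, and its ES arrays had 2.72 and 2.75, below every Dox+ array.

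Z00057154-1 was lowered most. On day 3 it had 2.41 and 2.44 in Dox+Tmx+ and 2.45 and 2.45 in Dox+Tmx- cells, against 3.85 and 3.81 in Dox-Tmx+ and 3.82 and 3.85 in Dox-Tmx- cells. The log2 difference was -4.09 (SE 0.05, limma adjusted p = 7.00e-27), with no overlap between the states. It stood at 2.38 and 2.43 in ES cells, the level of the Dox+ cells, and at 3.39 and 3.32 in untreated wild MEFs. Z00023022-1, one of the brightest members, had 3.81 and 3.87 in Dox+Tmx+ and 3.96 and 3.86 in Dox+Tmx- cells, against 4.94 and 4.90 in Dox-Tmx+ and 4.90 and 4.99 in Dox-Tmx- cells on day 3. Its log2 difference was -3.49 (SE 0.09, limma adjusted p = 1.17e-20), and its ES arrays lay lower still, at 3.28 and 3.31. Of the 39 lowered members, 3 were not well above background on any Dox+ array of day 3, so their level there is only a bound.

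**Figure D2:**
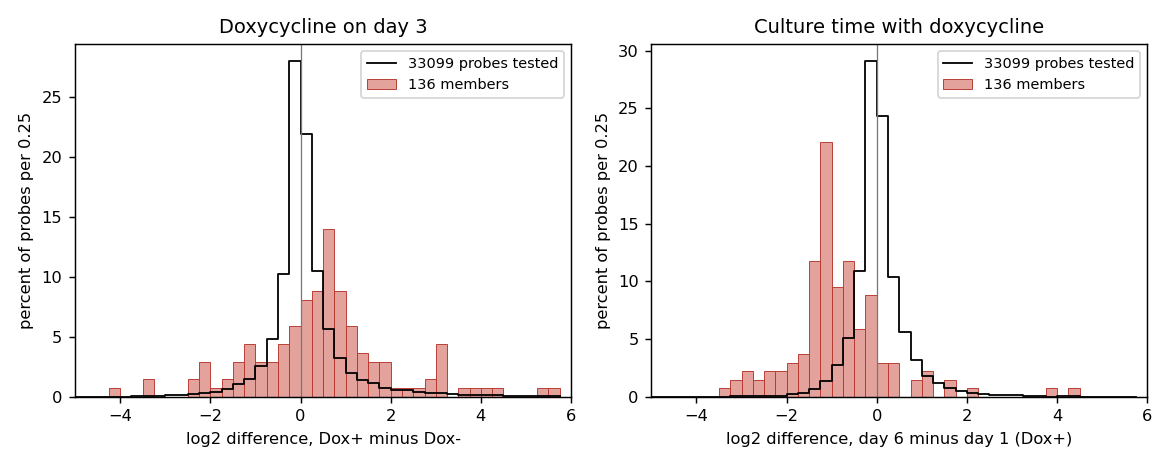
Percent of probes (vertical axis) per 0.25 of log2 difference (horizontal axis) for doxycycline on day 3 (left, Dox+ minus Dox-) and for culture time with doxycycline (right, day 6 minus day 1 in Dox+ cells). Bars are the 136 members and the black line the 33099 probes tested. The members' medians are 0.52 on the left and -1.01 on the right, and all probes centre on 0 in both.

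The levels with and without doxycycline on days 1 and 6 can only be described, because the Dox- arrays of those days chose the members for a high day 1 and a low day 6. On day 6 the Dox+ mean was at or above the Dox- day 1 mean for 20 members, at least 50% of the way from the Dox- day 6 to the Dox- day 1 mean for another 22, above Dox- day 6 but short of that for 57, and at or below Dox- day 6 for 37. All 4 Dox+ day 6 arrays lay above all 4 Dox- day 6 arrays for 89 members, against 23.6% of all probes, and all below for 33, against 26.5%. Nothing is read from these counts. The members' median Dox+ minus Dox- difference in log10 units was -0.08 at day 1, 0.13 at day 3 and 0.15 at day 6. On day 1 the Dox+ mean was above the Dox- mean for 45 members, and the differences ran from -1.38 to 1.25. The 39 members that doxycycline lowered on day 3 had a median difference of -0.49 on day 1 and -0.51 on day 6, while the 85 that it raised had -0.00 on day 1 and 0.31 on day 6. Of these values, the day 3 difference alone is free of the rule's arrays.

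Under doxycycline most members still fell with time. In Dox+ cells, 112 members were lower on day 6 than on day 1 and 18 were higher by limma at an adjusted p under 0.05, against 31.5% and 33.4% of the 33099 probes tested. The median log2 difference of the members was -1.01, against -0.01 for all probes. In log10 brightness the members' median fall with doxycycline was 0.36. It is not set against the fall without doxycycline, which the rule fixed to be at least 0.5. On day 3 against day 1, 82 members were lower and 30 higher, against 26.5% and 32.6% of all probes, with a median of -0.33. Since the day 1 arrays were scanned on another day, as were the Dox- day 1 arrays that chose the members, day 6 was also set against day 3, whose arrays were scanned on the same day. This comparison was added after the data were seen. It called 106 members lower and 11 higher, against 28.4% and 23.8% of all probes, with a median of -0.53.

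Of the 85 members that doxycycline raised on day 3, 65 were lower on day 6 than on day 1 in Dox+ cells and 16 were higher, against 28.5% and 50.2% of all probes that it raised. Of the 39 that it lowered on day 3, 36 were lower on day 6 and 1 was higher, against 42.2% and 28% of all probes that it lowered. The 2 comparisons share no array. Z00070024-1 stood above its Dox- level on day 3 and fell with time all the same. It had 3.91 and 3.91 in Dox+Tmx+ and 3.90 and 3.88 in Dox+Tmx- cells on day 1, between 3.07 and 3.12 by day 3, and 3.08 and 2.98 with tamoxifen and 2.82 and 2.80 without it on day 6. Its log2 difference between days 6 and 1 was -3.22 (SE 0.06, limma adjusted p = 6.22e-24). On day 3 its Dox+ arrays lay above its Dox- arrays, which had 2.53 to 2.59. They did so on days 1 and 6 too, but the Dox- arrays of those days chose the members.

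Z00041156-1 had the largest fall in Dox+ cells on the log2 ratio scale of the fit. It had 3.25 to 3.29 on the 4 Dox+ arrays of day 1, 2.01 to 2.10 on day 3 and 1.89 to 1.97 on day 6, a log2 difference between days 6 and 1 of -3.30 (SE 0.07, limma adjusted p = 7.24e-23). Without doxycycline it had 2.53 to 2.68 on day 6 and 3.51 to 3.54 on day 1, a fall of 0.95 log10 units. Z00031819-1, whose sequence resembles it, had mean levels over days 1, 3 and 6 of 2.89, 1.33 and 1.03 in Dox+ cells and of 3.06, 2.39 and 2.12 in Dox- cells. In log10 brightness the fall of Z00031819-1 in Dox+ cells was 1.85, against 1.33 for Z00041156-1. Its 1.03 on day 6 lay within the 0.92 to 1.08 of Z00064871-1 on those arrays, where that probe was not well above background. The 1.85 thus rests on values near background and is not ranked against the 1.33. Whether the pair measures the same RNA was not tested, so they are not counted as separate evidence.

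Z00003486-1 and Z00074700-1 rose most in Dox+ cells. Z00003486-1 had 2.04 to 2.07 on the Dox+ arrays of day 1, between 2.92 and 3.38 by day 3 and between 3.46 and 3.58 by day 6, against 1.80 to 2.07 in Dox- cells on day 6. Its log2 difference between days 6 and 1 in Dox+ cells was 4.29 (SE 0.19, limma adjusted p = 6.86e-16), and its ES arrays had 3.96 and 4.03. Its 2 Dox+Tmx+ arrays of day 6 had the same deposited value, 3.46. Their log2 sample over reference ratios in the fit were 0.75 and 2.16, and the cause of this disagreement was not tested. Z00074700-1 had 3.18 to 3.23 on day 1, 4.05 to 4.13 on day 3 and 4.28 to 4.43 on day 6 in Dox+ cells. Its log2 difference was 3.82 (SE 0.06, limma adjusted p = 2.14e-24), and its ES arrays, at 4.09 and 4.10, lay above its wild MEF arrays at 2.31 and 2.40. Without doxycycline the fall was 3.90-fold for Z00003486-1 and 4.08-fold for Z00074700-1.

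**Figure D3:**
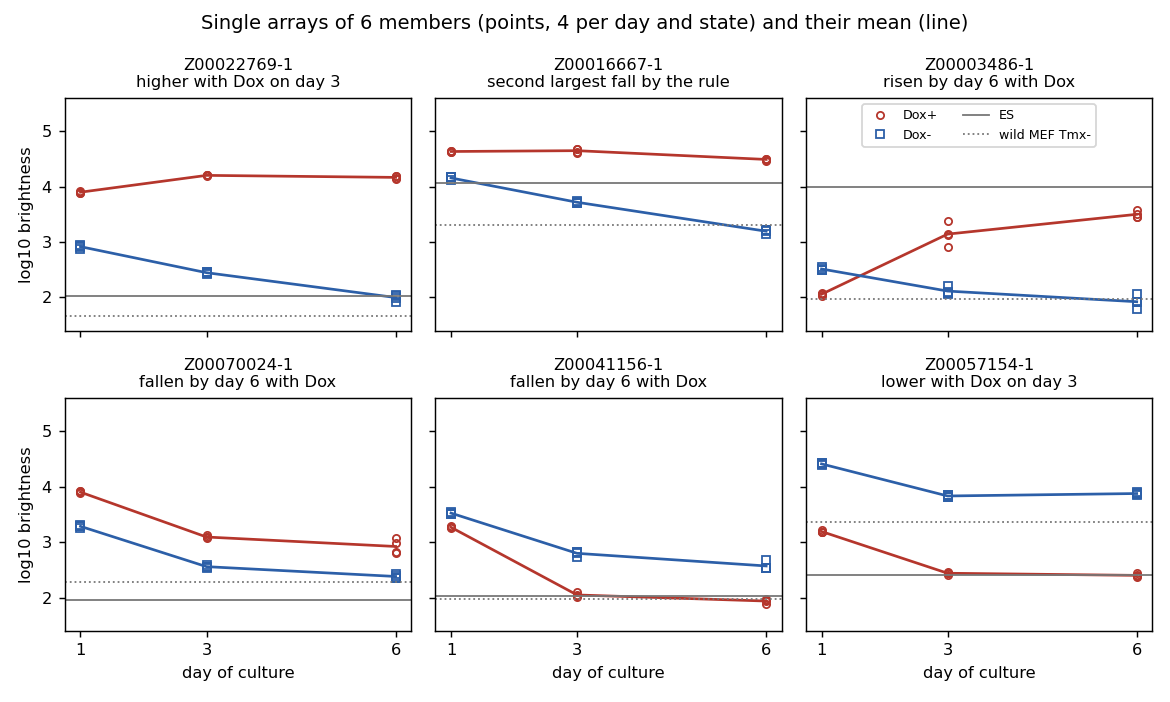
Log10 brightness (vertical axis) of 6 members on days 1, 3 and 6 (horizontal axis) in secondary MEFs with doxycycline (red circles) and without it (blue squares), 4 arrays per day and state, with lines through their means. Grey lines give the mean of ES cells (solid) and of untreated wild MEFs (dotted). Z00022769-1 and Z00016667-1 stay high with doxycycline, Z00003486-1 climbs, and Z00070024-1, Z00041156-1 and Z00057154-1 fall in both states.

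Most members were brighter in ES cells than in untreated wild MEFs, the only fibroblasts compared here. Against untreated wild MEFs, 83 members were higher in ES cells and 47 lower by limma at an adjusted p under 0.05, against 33.4% and 40% of 33098 probes tested. The members' median log2 difference was 0.82, against -0.04 for all probes, and the differences ran from -5.53 to 6.49. These groups differ also in medium, slide and scan day, which cannot be told apart from the cell type. Z00030573-1 stood out, with 4.44 and 4.46 in ES cells and 2.03 and 2.10 in wild MEFs, a log2 difference of 6.49 (SE 0.07, limma adjusted p = 6.00e-29). Z00035601-1 had 4.27 and 4.28 in ES cells and 2.42 and 2.48 in wild MEFs, a difference of 5.20 (SE 0.11, limma adjusted p = 2.75e-23). At the other end, Z00026289-1 had 2.79 and 2.83 in ES cells, against 4.45 and 4.46 in wild MEFs, a difference of -5.53 (SE 0.06, limma adjusted p = 1.57e-28). Z00041301-1 had 2.46 and 2.51 in ES cells, against 4.20 and 4.17 in wild MEFs, a difference of -5.47 (SE 0.08, limma adjusted p = 7.10e-26). The set that falls with time held both probes brighter in ES cells and probes brighter in wild MEFs. The share lower in ES cells, 34.6% of the members, was not above the 40% of all probes.

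Of the 85 members that doxycycline raised on day 3, 62 were brighter in ES cells than in wild MEFs, 20 were lower and 3 were not called, with a median log2 difference of 1.22. Among all probes that doxycycline raised, 45.2% were higher in ES cells and 34.8% lower. Of the 39 that it lowered, 13 were higher in ES cells, 24 were lower and 2 were not called, with a median of -0.51. Among all probes that it lowered, 21.9% were higher in ES cells and 58.9% lower, so the 24 of 39 were near the share of all such probes. Across the 136 members, the difference made by doxycycline on day 3 and that between ES cells and wild MEFs had a Pearson r of 0.36 and a Spearman rho of 0.29. The comparisons share no array, but they share probes and a reference RNA that holds ES cell RNA, so this is a description.

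**Figure D4:**
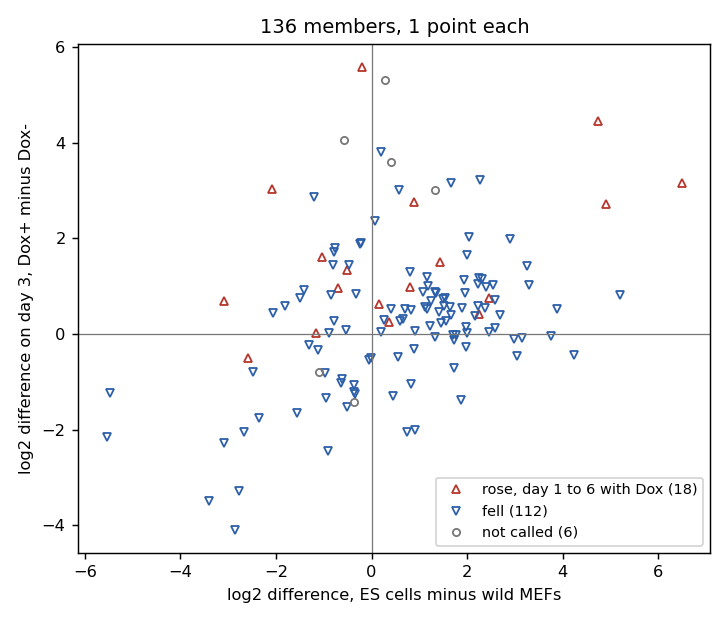
Log2 difference made by doxycycline on day 3 (vertical axis, Dox+ minus Dox-) against that between ES cells and wild MEFs (horizontal axis), 1 point for each of the 136 members. Symbols show whether the member rose (18), fell (112) or was not called (6) between days 1 and 6 in Dox+ cells. Points lie on both sides of 0 on both axes, with 62 members called higher in both comparisons and 24 lower in both.

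Between iPS and ES cells the members' median log2 difference was -0.02, but single members differed in both directions. Of the members, 15 (11.0%) were higher in iPS cells and 27 (19.9%) lower, against 2.94% and 5.18% of the 33098 probes tested. The other 94 were not called. The rule chose bright probes, with a median log10 brightness of 3.32 in iPS and 3.36 in ES cells, against 2.39 and 2.40 for all 25030 probes. Whether brightness raises the share called, here or with tamoxifen below, was not tested. All 4 arrays were on 1 slide. The iPS cells were a clone of their own, so clone and cell type cannot be told apart. Z00023022-1 had 3.84 and 3.79 in iPS cells, against 3.28 and 3.31 in ES cells (log2 difference 1.69, SE 0.13, limma adjusted p = 2.79e-09). Z00071988-1 had 4.35 and 4.36, against 3.87 and 3.87 in ES cells (1.65, SE 0.12, limma adjusted p = 3.77e-10). Z00034626-1 had 3.63 and 3.63 in iPS cells, against 4.02 and 4.04 in ES cells (-1.38, SE 0.05, limma adjusted p = 8.67e-15).

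In the comparisons tested, tamoxifen moved no member by 2-fold on the background-corrected log2 ratio scale of the fit. Beside doxycycline on day 3, 14 members (10.3%) were higher with tamoxifen and 5 (3.68%) lower, against 5.2% and 2.14% of the 33099 probes tested. On day 6, 31 members (22.8%) were higher and 2 (1.47%) lower, against 6.82% and 2.43%. Leaving out 1 of the arrays compared brought the 14 down to between 6 and 9, and the 31 to between 18 and 21. Over the other alternatives, the 14 became 4 to 31 and the 31 became 8 to 32, the lowest with all local backgrounds as deposited. The arrays with and without tamoxifen shared a slide but sat at different positions on it, which cannot be told apart from the treatment. Z00006521-1 moved most on day 6, with 2.60 and 2.60 in Dox+Tmx+ cells, against 2.23 and 2.25 in Dox+Tmx- cells (log2 difference 0.92, SE 0.07, limma adjusted p = 2.64e-09), and its limma log2 difference was 1.19 on the series matrix values. Z00031214-1 had 2.57 and 2.61 in Dox+Tmx+ cells, against 2.31 and 2.24 in Dox+Tmx- cells (0.78, SE 0.10, limma adjusted p = 6.18e-06), and 1.04 on the series matrix values. Z00041301-1 was lower, with 3.59 and 3.54 in Dox+Tmx+ cells, against 3.71 and 3.71 in Dox+Tmx- cells (-0.46, SE 0.08, limma adjusted p = 0.0004). By call, 7 of the 136 members were higher with tamoxifen on both days, against 3.16% of all probes tested.

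Without doxycycline, tamoxifen gave no call on day 3 among the members or among all 33099 probes (0%) by limma, with 3 members and 824 probes at an unadjusted p under 0.05. None of the alternatives tried gave a call for a member. In primary Zscan4ERT2 MEFs, 15 members (11.0%) were higher with tamoxifen and 4 (2.94%) lower, against 1.62% and 1.43% of the 33098 probes tested. The tamoxifen arrays lay on another slide and another scan day there, which cannot be told apart from the treatment, and without any 1 array the 15 became 7 to 15 and the 4 became 1. Z00034467-1 had 3.14 and 3.11 with tamoxifen, against 2.93 and 2.85 without (log2 difference 0.71, SE 0.14, limma adjusted p = 0.00524). Z00005286-1 had 2.48 and 2.44, against 2.67 and 2.71 without (-0.50, SE 0.13, limma adjusted p = 0.0362). With all local backgrounds as deposited neither was called, at limma adjusted p of 0.146 for Z00034467-1 and 0.364 for Z00005286-1.

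The tamoxifen effect on day 3 itself differed between Dox+ and Dox- cells for 6 members, all higher, against 1.95% higher and 0.426% lower among the 33099 probes tested. Z00030573-1, the probe with the largest ES cell excess, had 3.55 and 3.55 in Dox+Tmx+ and 3.33 and 3.32 in Dox+Tmx- cells, but 2.37 and 2.37 in Dox-Tmx+ and 2.31 and 2.36 in Dox-Tmx- cells. The difference of the tamoxifen effects was 0.70 on the log2 scale (SE 0.09, limma adjusted p = 5.92e-05). With all local backgrounds as deposited, no member was called (limma adjusted p = 1.00 for Z00030573-1), and with the Feature Extraction log ratio its limma adjusted p was 0.0517.

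For 6 members, another probe on the array shared a stretch of at least 20 bases. None of these is in the series matrix, so the rule could not choose them, though they were read on the same arrays and so share their RNA. They were singled out after their values were seen. Without doxycycline the log2 sample over reference ratio of Z00049101-1, which shares 58 bases with Z00054196-1, fell by 1.94 between days 1 and 6, against 1.97 for the member. That of Z00059537-1 (53 bases shared with Z00005762-1) fell by 2.09, against 2.41, that of Z00072589-1 (27 bases shared with Z00071988-1) by 1.86, against 1.87, and that of Z00006752-1 (23 bases shared with Z00075229-1) by 1.83, against 2.38. Over the 36 arrays these 4 followed their members with a Pearson r of 0.996 to 0.998. Z00059773-1, which shares 40 bases with Z00041156-1, fell by 2.15, against 3.02, with an r of 0.85, and Z00076925-1 was not well above background on any array. On day 3, doxycycline raised Z00049101-1 by 1.42 (SE 0.07) and Z00059537-1 by 1.25 (SE 0.05) and lowered Z00059773-1 (log2 difference -0.69, SE 0.06), with limma adjusted p of 1.96e-15, 2.04e-16 and 3.97e-11, the same directions as their members.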

How the data were processed

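RNA was measured on 2-colour arrays with the sample in Cy3 and a common reference in Cy5, with no dye swap, per the labels. The scanner software was Feature Extraction 9.5.1.1 by Agilent, according to the deposited files' headers. The deposited intensity values were each spot's mean signal and median local background in both channels. The deposited log10 values of the series matrix were read as sample brightness, since they correlated at 0.952 to 0.981 with log10 of that channel's mean signal on each array; their medians were 2.37 to 2.46, while their normalization and any centring are stated in none of the sources read. They served to choose the members and to show levels. The deposited log10 ratios of Feature Extraction were an alternative, with the sign turned.

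For tests, limma 3.58.1 in R 4.3.3 computed log2 sample over reference ratios: normexp background correction (offset 50), with the array's median in place of the 2.50% of local backgrounds that were marked as outliers, loess within arrays, and non-uniform spots left out, which removed 1 value among the members (Z00064871-1 on 1 array). Probes well above background on both arrays of at least 1 group were tested, 33099 of 42006. One mean per group was fitted on all 36 arrays (18 residual and 5.05 prior degrees of freedom), with eBayes, two-sided, Benjamini-Hochberg adjustment over all probes tested and calls at an adjusted p under 0.05. The fit was tested on simulated data. Contrasts with the Dox- arrays of days 1 and 6 were not tested, except in the alternative fit with slide as a random block.

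Members and comparisons were chosen with earlier results of these data known. Probes named are at most 2 higher and 2 lower per comparison: the largest differences among called members whose arrays do not overlap (not asked of the interaction) and are all well above background, and the 2 largest falls. The condition on background was added after the data were seen. Z00031819-1 is named for its sequence. Planned gene lists could not be used without gene names. The deviations of same-numbered arrays of different groups had no common sign. Over 153 pairs of groups their correlation ran from -0.63 to 0.53 with a median of -0.00, with 35 pairs over 0.1 and 38 under -0.1. It was -0.27 for tamoxifen beside doxycycline on day 3 and 0.53 on day 6. The main fit did not pair the arrays by number, but a deviation shared by some groups is not excluded.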

Additional observations from a re-analysis of the deposited data

Results flagged for a closer look

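The effect of tamoxifen on day 3 was tested for a difference between cells with and without doxycycline, and 6 members passed limma's interaction test at an adjusted p under 0.05. The difference of the log2 effects, Dox+ minus Dox-, was 0.70 for Z00030573-1 and 0.69 for Z00075083-1 (SE 0.15, adjusted p = 0.0113). For Z00075083-1 the tamoxifen effect was 0.56 with doxycycline and -0.13 without. Leaving out 1 of the 8 arrays gave 3 to 6 such members. With all local backgrounds as deposited, 0 members passed, and limma's adjusted p was 1.00 for Z00030573-1 and 0.469 for Z00075083-1. With the Feature Extraction log ratio 2 members passed, neither of them these, at adjusted p of 0.0517 and 0.136. With the series matrix values Z00075083-1 did not pass (adjusted p = 0.0688). Groups of 2 arrays are too small to look for a single array that stands apart.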

How the results depend on the processing

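No result changed direction under the alternatives run. Leaving aside the slide block given last, the counts for doxycycline on day 3, for culture time with doxycycline and for ES cells against wild MEFs stayed within 1.5 times. Without doxycycline, tamoxifen on day 3 gave 0 members throughout. The tamoxifen counts depended on the processing. With all local backgrounds as deposited, tamoxifen beside doxycycline gave 4 members higher and 1 lower on day 3 and 8 higher and 1 lower on day 6, the interaction gave 0 higher, iPS against ES cells 15 lower, and tamoxifen in Zscan4ERT2 MEFs 6 higher and 0 lower. With the Feature Extraction log ratio, tamoxifen beside doxycycline gave 8 higher and 3 lower on day 3 and 14 higher on day 6, and the interaction 2 higher. With the series matrix, tamoxifen on day 6 gave 9 lower, and Zscan4ERT2 MEFs 23 higher. Fitting only arrays of the same experiment gave 1 member lower in the interaction, and 5 higher and 1 lower in Zscan4ERT2 MEFs. The causes were not tested.

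Leaving out 1 array gave 6 to 9 members higher and 0 to 4 lower with tamoxifen beside doxycycline on day 3, 18 to 21 higher and 1 to 3 lower on day 6, 3 to 6 higher and 0 to 2 lower in the interaction, 7 to 15 higher and 1 lower in Zscan4ERT2 MEFs, and 10 to 12 higher and 20 to 24 lower in iPS against ES cells. A lone array was then assumed to vary like the other groups. Applied to the log2 ratios, the rule chose 82 members, and at a difference of at least 0.3 or 1 it chose 712 or 1.

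With the replicate number as a block, doxycycline on day 3 gave 85 members higher and 39 lower, and no count moved by over 1.5 times. A crossed replicate block, added after the data were seen, gave 31 members higher and 11 lower for tamoxifen beside doxycycline on day 3. Doxycycline was also averaged over the days with slide as a random block, which includes the Dox- arrays that chose the members. In that fit 59 of the 135 members were higher and 30 lower, against 22.5% and 18.6% of its 32971 probes. Nothing is read from these counts, since the rule fixed part of the values behind them.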
